A study of Mus musculus with 6 samples.

Results

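A set of 10 named genes of sulphate conjugation were followed in primary hepatocytes, the main epithelial cells of the liver, isolated from WT and S100a16KO+/- mice that had both been fed alcohol. They comprised 8 cytosolic sulfotransferase genes (Sult1a1, Sult1b1, Sult1c2, Sult1d1, Sult1e1, Sult2a8, Sult3a1 and Sult5a1) and the 2 PAPS synthase genes Papss1 and Papss2, and all 10 were found by name among the 25718 genes of the deposited table. The set was chosen by gene name with the difference between genotypes already known, because Sult1e1 was among the genes with the largest rises. The genotype differences of these 10 genes are therefore given as a description, with no p-value, and their calls at the threshold used for all genes are listed without being taken as support.

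Cytosolic sulfotransferases move a sulphate group from the donor PAPS (3'-phosphoadenosine 5'-phosphosulfate) onto hormones, bile acids, amines and foreign compounds, which makes them more soluble in water and usually inactive. PAPS itself is made from ATP and inorganic sulphate by the PAPS synthases. The liver is a main site of this conjugation, and sulphate esters can be cleaved again by sulfatases.

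The series held 6 libraries, 3 from each genotype. The mice were males of 8 to 10 weeks that had received control liquid diet for 5 days, liquid diet with 5% ethanol by volume for 10 days and then 1 gavage of 5 g/kg ethanol, with tissue collection 9 h later. Both genotypes received ethanol, so the comparison held no group without it. The S100a16KO+/- mice had lost 1 of their copies of S100a16 through a cross with EIIa-Cre mice, a line that deletes in the early embryo, so every tissue and not only hepatocytes carried the deletion. The sample labels call this genotype a knockdown, whereas the series description and the methods of the study name heterozygous knockout mice, and the latter name is used here. Hepatocytes were obtained by collagenase perfusion and Percoll sedimentation, and whether they were cultured before RNA extraction is not stated in the sources used here.

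Each library held between 67658095 and 71807834 estimated counts in all, and 1 sequenced fragment was worth about 4 counts, so that a count of 0 allowed up to 3 fragments or 12 counts. This limit covers counting error only. S100a16 had 1001, 1056 and 1107 counts in the WT libraries and 433, 390 and 366 counts in the S100a16KO+/- libraries. Within a genotype, the counts of WT replicate 1 and S100a16KO+/- replicate 2 lay farthest from those of the other libraries (chi-square per degree of freedom 9.3 to 12.1, against 3.56 and 3.28 for the remaining pairs), and no pair of libraries was alike within sampling noise. Summed markers of hepatocytes lay between 110800 and 126500 CPM (estimated counts relative to the scaled library total) in all libraries. Erythroid markers were lower in S100a16KO+/- libraries (23.4 to 26.3 CPM, against 214.8 to 252.2 CPM in WT, 5 of 5 measured markers called lower, that is, at an adjusted p under 0.05 in edgeR's quasi-likelihood test). Of the 8 hepatocyte markers, 1 was called higher and 2 were called lower. Markers of sinusoidal endothelial cells were higher (343.3 to 354.0 CPM against 234.7 to 247.4 CPM, 7 of 8 called higher and 1 lower), as were those of stellate cells (91.8 to 106.3 CPM against 55.0 to 60.0 CPM, 4 of 8 called higher). Kupffer cell markers summed to 175.8 to 192.1 CPM against 149.0 to 179.2 CPM (3 of 10 called higher), and cholangiocyte markers to 4.95 to 5.57 CPM against 4.65 to 6.53 CPM (1 of 4 tested called lower). Over all tested genes, 11.6% were called higher and 11.2% lower. No marker was at 0 in all libraries. In such bulk samples fewer cells of a type and less RNA per cell cannot be told apart, and the part of other cell types in the results below was not tested.

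Sult1b1, Sult1d1 and Sult1e1 lie next to each other on the minus strand of chromosome 5 (GRCm38). Sult1b1 extends from 87513339 to 87538195, Sult1d1 from 87554645 to 87569027 and Sult1e1 from 87575969 to 87591594. The others are spread over the genome, Sult1a1 (126672865 to 126676432) and Sult2a8 (14410686 to 14446769) on chromosome 7, Papss1 on 3 (131564768 to 131643671), Sult5a1 on 8 (123140192 to 123158315), Sult3a1 on 10 (33857721 to 33879532), Sult1c2 on 17 (53829637 to 53846339) and Papss2 on 19 (32595790 to 32667185). The gap to Sult1e1 was 6.94 kb for Sult1d1 and 37.8 kb for Sult1b1. Because these close neighbours moved by different amounts, their promoters are shown as the 250 bases before the RefSeq start (GRCm38.p6), 5′ to 3′ on the minus strand, at chr5:87538196-87538445 for Sult1b1 (which has another RefSeq start further inside the gene), chr5:87569007-87569256 for Sult1d1 and chr5:87591612-87591861 for Sult1e1. Capitals mark TGACCT, the reverse complement of AGGTCA, the half-site bound by many nuclear receptors.
Sult1b1: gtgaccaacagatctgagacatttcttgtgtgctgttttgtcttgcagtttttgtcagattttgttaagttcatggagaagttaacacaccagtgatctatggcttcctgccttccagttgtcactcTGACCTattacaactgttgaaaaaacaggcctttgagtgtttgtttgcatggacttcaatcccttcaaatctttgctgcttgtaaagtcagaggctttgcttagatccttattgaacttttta
Sult1d1: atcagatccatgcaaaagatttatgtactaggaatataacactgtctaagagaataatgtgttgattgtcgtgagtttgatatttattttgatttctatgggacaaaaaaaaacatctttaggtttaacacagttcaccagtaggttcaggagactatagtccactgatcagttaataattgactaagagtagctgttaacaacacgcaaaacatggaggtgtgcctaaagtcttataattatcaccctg
Sult1e1: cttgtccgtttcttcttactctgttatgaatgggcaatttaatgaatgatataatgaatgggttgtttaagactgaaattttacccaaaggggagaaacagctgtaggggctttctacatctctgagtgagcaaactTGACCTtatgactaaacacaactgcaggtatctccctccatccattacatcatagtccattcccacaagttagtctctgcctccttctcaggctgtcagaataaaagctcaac
The match began 113 bases before the start in Sult1e1 and 123 bases before it in Sult1b1, and the Sult1d1 window held none. AGGTCA on either strand occurred in 14% of the 32851 promoter windows of the same length in the table, and such a match is only a description of the sequence. A further 4 motifs were searched on both strands, and none of the 3 windows held them. They were CCACG (part of the ER stress element, in 28.3% of all windows), TGACGTGG (the unfolded protein response element, 0.563%), TGACGTCA (the cyclic AMP element, 1.55%) and CACGTG (the E-box, 6.02%), of which TGACGTGG overlaps CCACG on its other strand.

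Sult1e1 (ENSMUSG00000029272) encodes the estrogen sulfotransferase, which conjugates estrogens at very low concentrations. Its level was 1.20, 1.39 and 1.62 CPM in the WT libraries and 17.8, 15.1 and 16.7 CPM in the S100a16KO+/- libraries. All 3 S100a16KO+/- libraries were far above all 3 WT libraries, and the lowest of them still stood clear of the highest WT value. The counts behind these values were 82, 98 and 111 in WT and 1236, 970 and 1204 in S100a16KO+/- hepatocytes, well above the limit that a count of 0 allows. The fold change was 11.8, a log2 fold change of 3.56 (SE 0.14, 95% interval 3.26 to 3.86). This interval does not allow for the choice of Sult1e1 on the same comparison and is a description only. Over 17 other ways of processing the data the log2 fold change lay between 2.69 and 3.67. The lowest value was on the log2(FPKM + 1) scale, which shrinks changes of genes with a low level. The gene has 1 annotated transcript of 1242 bases in 8 exons, overlaps no other gene, and shares none of its words of 31 bases with the transcripts of another gene.

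**Figure D1:**
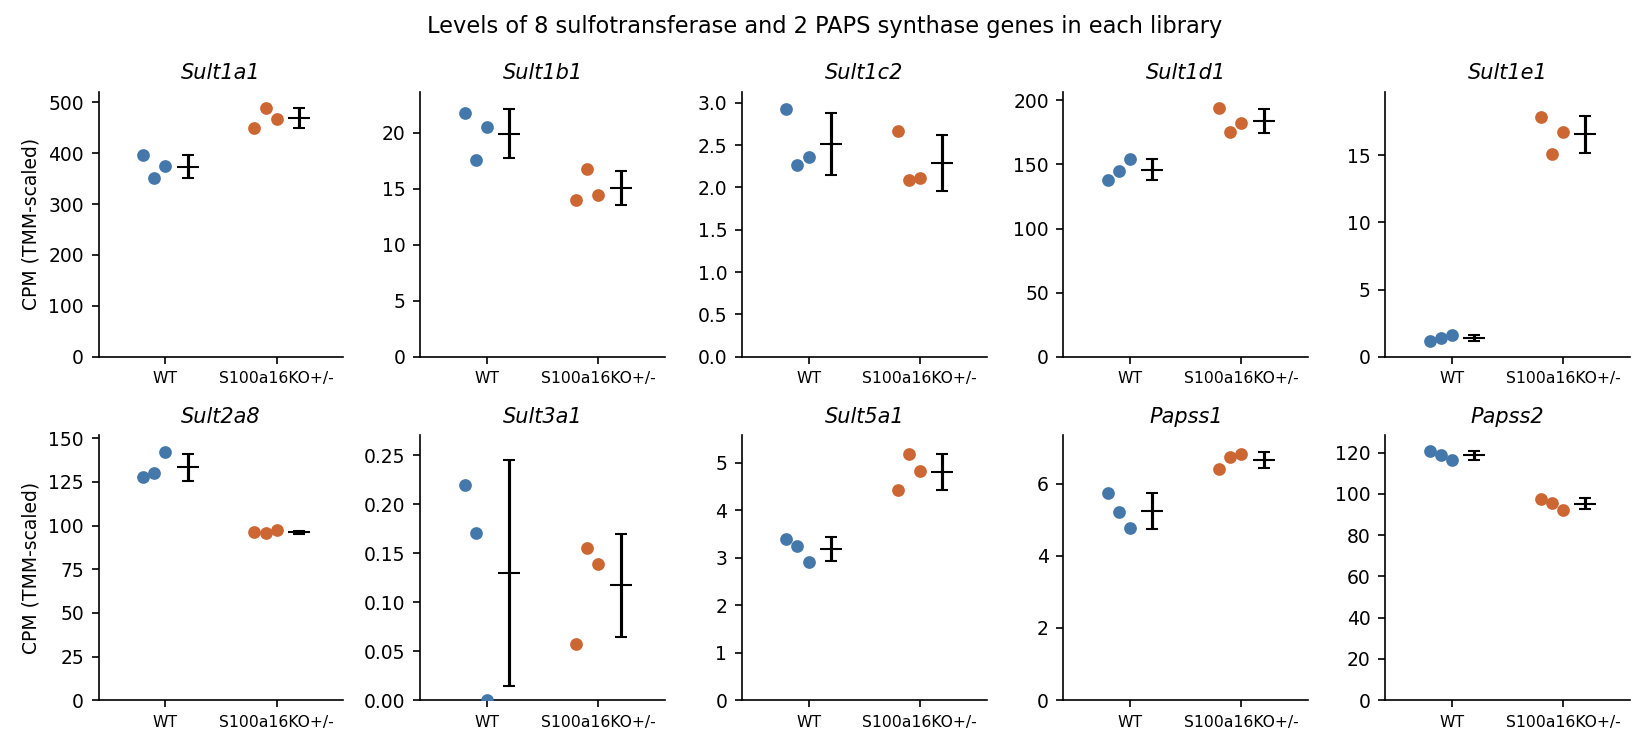
Level of each gene in each library in TMM-scaled CPM (linear axes from 0), with WT in blue, S100a16KO+/- in orange, and bars for the mean and SD of 3 libraries. The Sult1e1 points lie at 1.20 to 1.62 CPM in WT and at 15.1 to 17.8 CPM in S100a16KO+/- hepatocytes, while the points of Sult1c2 and Sult3a1 overlap between genotypes.

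The other members of the phenol sulfotransferase family moved far less and not all in the same direction. Sult1a1, the phenol sulfotransferase with the highest level of the set, had 396.2, 350.8 and 374.2 CPM in WT and 449.9, 488.5 and 467.0 CPM in S100a16KO+/- libraries. Every S100a16KO+/- value was above every WT value, with a log2 fold change of 0.33 (SE 0.06). Sult1d1, which conjugates catecholamines such as dopamine, had 138.2, 145.0 and 154.3 CPM in WT and 193.9, 175.1 and 182.4 CPM in S100a16KO+/- libraries. Here too the groups were apart, with a log2 fold change of 0.33 (SE 0.06).

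Sult1b1, which accepts thyroid hormones and small phenols, was the lower one among the 3 neighbours on chromosome 5. It had 21.7, 17.5 and 20.5 CPM in WT and 14.0, 16.8 and 14.5 CPM in S100a16KO+/- libraries, with the highest S100a16KO+/- value close to the lowest WT value but below it. The log2 fold change was -0.40 (SE 0.10). Sult1c2, a further phenol sulfotransferase, had 2.93, 2.26 and 2.35 CPM in WT and 2.67, 2.09 and 2.11 CPM in S100a16KO+/- libraries. These values overlapped, and the log2 fold change of -0.13 was smaller than its SE of 0.20.

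Among the remaining sulfotransferases, Sult2a8, which sulphates bile acids in mouse liver, was lower in S100a16KO+/- hepatocytes. It had 127.5, 130.3 and 142.0 CPM in WT and 96.1, 95.5 and 97.2 CPM in S100a16KO+/- libraries. The S100a16KO+/- values lay within a narrow band below all WT values, and the log2 fold change was -0.47 (SE 0.06). Sult5a1 had 3.40, 3.24 and 2.91 CPM in WT and 4.42, 5.18 and 4.83 CPM in S100a16KO+/- libraries, again without overlap, with a log2 fold change of 0.60 (SE 0.15). Sult3a1, which acts on amines, was barely detected, with 15, 12 and 0 counts in WT and 4, 10 and 10 counts in S100a16KO+/- libraries. All but 1 of these counts were at or under the 12 counts that a count of 0 allows, so no fold change is given, and a difference was not detectable at this depth.

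The PAPS synthase genes had log2 fold changes of opposite sign, but Papss1 was not called in the main fit or in any of the 17 alternatives. Papss2, the form with the higher level in these cells, had 120.7, 119.0 and 116.6 CPM in WT and 97.5, 95.8 and 92.3 CPM in S100a16KO+/- libraries, a log2 fold change of -0.32 (SE 0.05). Papss1 had 5.74, 5.20 and 4.76 CPM in WT and 6.39, 6.74 and 6.82 CPM in S100a16KO+/- libraries, a log2 fold change of 0.35 (SE 0.13). Neither gene overlapped between genotypes, beside 37.9% of all tested genes, with Papss2 lower and Papss1 higher in every S100a16KO+/- library. On the length-scaled FPKM values, the level of Papss2 was 18.8 ± 1.38 times that of Papss1 (SD, n = 3) in WT and 11.8 ± 0.705 times (SD, n = 3) in S100a16KO+/- hepatocytes.

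Sult1a1, Sult3a1, Sult5a1 and Papss1 each overlap a gene on the opposite strand, and since the use of strand in the counting is not stated, reads of such pairs cannot be told apart. Words of 31 bases shared with other genes made up 13.8% of Sult3a1 and 9.35% of Sult1a1, and at most 3.7% of any other of the 10 genes. All 10 genes passed the filter on low counts, Sult3a1 with at most 15 counts in a library. In edgeR's quasi-likelihood test with Benjamini-Hochberg adjustment over 15957 tested genes, 7 of the 10 were called, beside 22.8% of all tested genes. Sult1a1, Sult1d1, Sult1e1 and Sult5a1 were called higher (11.6% of all tested genes), and Sult1b1, Sult2a8 and Papss2 were called lower (11.2% of all tested genes). Papss1, Sult1c2 and Sult3a1 were not called, and 8 of the 10 did not overlap between genotypes, beside 37.9% of all tested genes. Since the set was selected on this comparison, nothing is read from these calls or shares. The median log2 fold change was 0.10 over the 10 genes and 0.0062 over all tested genes. Over the 17 alternatives the log2 fold change lay between 0.28 and 0.37 for Sult1a1, between -0.50 and -0.42 for Sult2a8 and between -0.34 and -0.30 for Papss2. The call of Sult1b1 was lost when WT replicate 1 (log2 fold change -0.34) or S100a16KO+/- replicate 3 (-0.38) was left out, and that of Sult5a1 when WT replicate 3 (0.53) was left out.

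**Figure D2:**
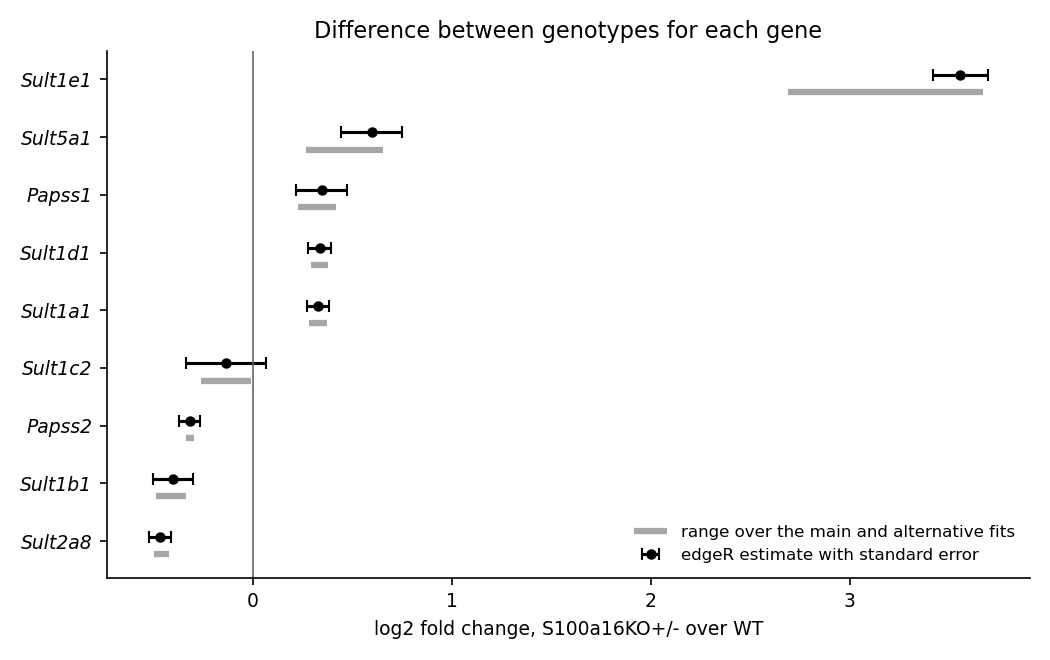
Log2 fold change of S100a16KO+/- over WT for 9 of the genes, with points for edgeR estimates, error bars for the SE and grey bars for the range over all fits. Sult1e1 stands alone at 3.56, the others lie between -0.47 and 0.60, and Sult3a1 is not drawn because of its low counts.

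The order of the genes by level was read from FPKM, which is scaled for transcript length. In WT hepatocytes Sult1a1 was highest with 221.1 ± 5.61 FPKM (SD, n = 3), followed by Sult1d1 with 53.0 ± 4.82, Sult2a8 with 36.3 ± 3.18 and Papss2 with 28.5 ± 0.987 FPKM. Below them came Sult1b1 with 6.38 ± 0.491, Papss1 with 1.52 ± 0.095, Sult1c2 with 1.21 ± 0.118, Sult1e1 with 1.01 ± 0.183 and Sult5a1 with 0.637 ± 0.039 FPKM, and Sult3a1 was last. Neighbours in this order were apart in all 3 libraries except for Sult1c2 and Sult1e1, whose values overlapped. In S100a16KO+/- hepatocytes the first 4 genes kept their places, with Sult1a1 at 278.8 ± 8.79, Sult1d1 at 67.2 ± 6.09, Sult2a8 at 26.3 ± 1.51 and Papss2 at 23.0 ± 1.08 FPKM. Sult1e1 stood next with 12.0 ± 1.49 FPKM, so that it moved from the eighth to the fifth place, above Sult1b1 with 4.84 ± 0.259 FPKM. Papss1 followed with 1.95 ± 0.112 FPKM, and then Sult1c2 with 1.11 ± 0.184 and Sult5a1 with 0.971 ± 0.056 FPKM, whose values overlapped.

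The make-up of the sulfotransferase transcripts differed between genotypes, and Sult1e1 remained a minor part of it in both. The summed FPKM of the 8 Sult genes was 319.7 ± 10.2 (SD, n = 3) in WT and 391.3 ± 14.0 in S100a16KO+/- hepatocytes. Sult1e1 took 0.260, 0.327 and 0.355 percent of this sum in the WT libraries and 3.35, 2.73 and 3.10 percent in the S100a16KO+/- libraries. Sult1a1 held most of the sum in both genotypes, with 69.2 ± 1.76 percent in WT and 71.3 ± 1.59 percent in S100a16KO+/- hepatocytes, and the values overlapped. The share of Sult2a8 was 11.3 ± 0.721 percent in WT and 6.72 ± 0.163 percent in S100a16KO+/- hepatocytes, without overlap. The ratio of Sult1a1 to Sult1d1 was nearly the same in both genotypes (4.19 ± 0.419 and 4.17 ± 0.383), whereas that of Sult1d1 to its neighbour Sult1e1 was 53.3 ± 5.10 in WT and 5.62 ± 0.209 in S100a16KO+/- hepatocytes. Relative to Sult1b1, Sult1e1 stood at 0.159 ± 0.031 in WT and at 2.49 ± 0.431 in S100a16KO+/- hepatocytes.

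**Figure D3:**
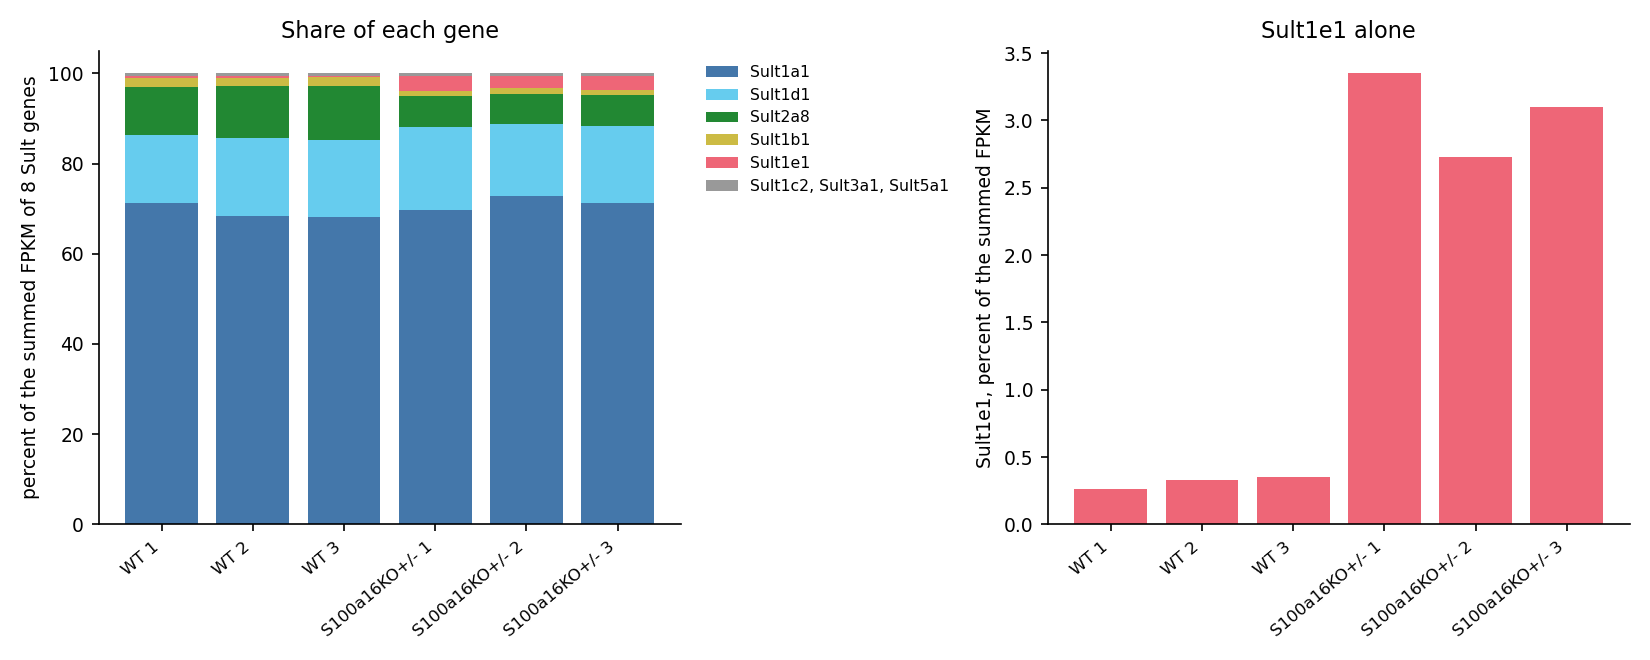
Stacked bars on the left give each gene's percent of the summed FPKM of the 8 Sult genes in each library, and bars on the right give the percent of Sult1e1 alone on its own axis, both from 0. Sult1e1 is at 0.260 to 0.355 percent in WT and at 2.73 to 3.35 percent in S100a16KO+/- hepatocytes, and Sult1a1 fills about the same part of every bar.

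Genes near Sult1e1 were listed to show its surroundings. Within 500 kb lay 14 listed genes besides the 3 sulfotransferases, of which 9 were tested and 5 were not, the latter with at most 8 counts in a library. Of the 9 tested, 6 were called higher by edgeR's quasi-likelihood test, beside 11.6% of all tested genes. All 9 had a log2 fold change above 0, beside a median of 0.0062 over all tested genes. These 9 all lay at lower positions than Sult1e1, as did Sult1b1, which fell (-0.40). Ugt2b5, a UDP-glucuronosyltransferase of the hepatocyte, rose from 568.4 ± 6.05 to 795.6 ± 34.7 CPM (SD, n = 3, log2 fold change 0.49, adjusted p = 3.91e-06). The other 3 genes of that family that were called were also higher, Ugt2b37 (log2 fold change 0.89, adjusted p = 0.00454), Ugt2a3 (0.21, adjusted p = 0.0121) and Ugt2b36 (0.17, adjusted p = 0.035). The reads of these relatives may be divided between them, since 56.4% of the words of 31 bases of Ugt2b5, 34.4% of those of Ugt2b37 and 12% of those of Ugt2b36 occur in transcripts of other genes. Gm7652, a pseudogene, rose from 0.773 ± 0.118 to 3.67 ± 0.298 CPM (log2 fold change 2.24, adjusted p = 2.92e-06), and Gm42796, which overlaps it on the other strand, was higher too (1.25, adjusted p = 0.0343). Whether the counting used strand is not stated, so the reads of these overlapping genes cannot be told apart. Gm35570 (0.62, adjusted p = 0.0597), Ugt2b38 (0.43, adjusted p = 0.125) and Gm21049 (0.24, adjusted p = 0.688) did not pass the threshold.

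**Figure D4:**
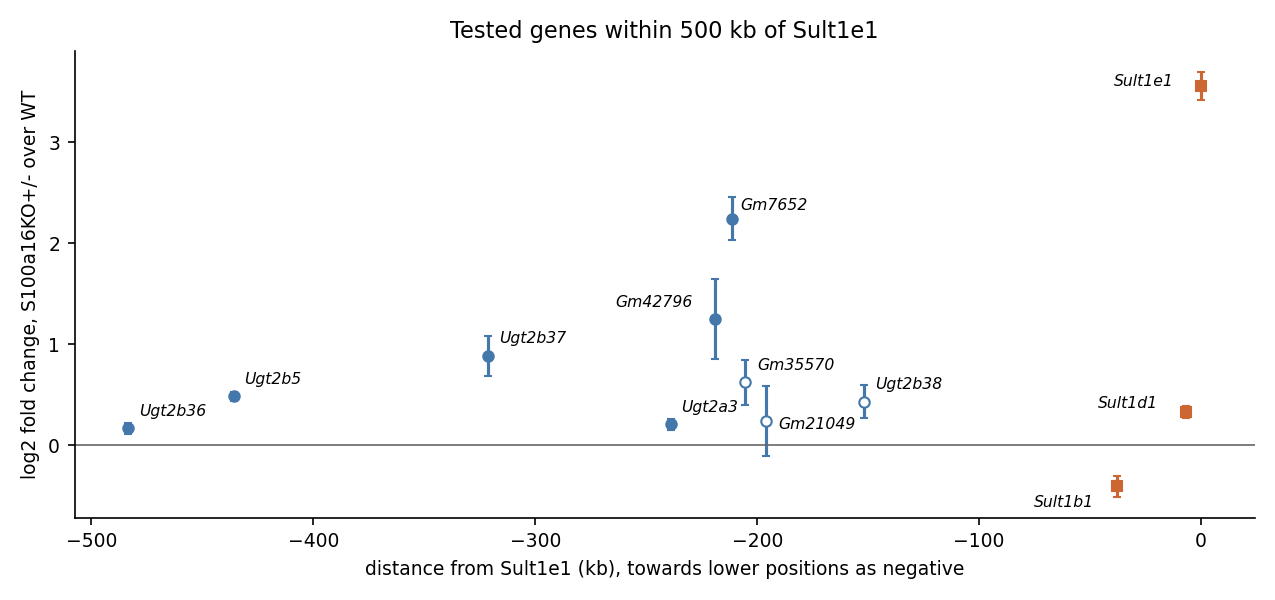
Log2 fold change (S100a16KO+/- over WT, bars for the SE) of each tested gene within 500 kb of Sult1e1 against its distance from Sult1e1 in kb. Squares are the 3 sulfotransferases, filled circles other genes called and open circles genes not called, and the largest change besides that of Sult1e1 is that of Gm7652 at 2.24.

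The genes whose profile over the 6 libraries was most like that of Sult1e1 were sought among the 9202 tested genes whose mean reached 4 CPM, by the root mean square difference of centred log2(CPM + 1) values. By this measure the nearest was Manf, which encodes a secreted protein of the endoplasmic reticulum (difference 0.111). It was followed by Hyou1 (0.175) and Hspa5 (0.202), chaperones of the same compartment, by Derl3 (0.247), a gene of ER-associated degradation, and by Hamp (0.259), which encodes hepcidin. Pearson's r with Sult1e1 was 0.997 for Manf, 0.998 for Hyou1, 0.995 for Derl3 and 0.985 for Hamp, and for Hspa5 it rounded to 1. Their levels rose from 24.2 ± 0.679 to 182.8 ± 3.38 CPM for Manf, from 44.4 ± 1.66 to 267.8 ± 8.37 CPM for Hyou1 and from 343.6 ± 15.6 to 1910 ± 133.1 CPM for Hspa5. For Derl3 they rose from 2.23 ± 0.035 to 30.1 ± 2.43 CPM, and for Hamp from 89.2 ± 11.7 to 695.3 ± 119.2 CPM. The order depends on the pseudocount of 1, which shrinks the step of Sult1e1. By the edgeR log2 fold change, Derl3 (3.76) was closer to Sult1e1 (3.56) than Manf (2.92), Hamp (2.96), Hyou1 (2.59) or Hspa5 (2.48). The likeness rests on the step between the genotypes, which all these genes share in the same 6 libraries.

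Genes of sulphate supply and PAPS handling are the closest partners of the sulfotransferases outside the set. The table held 15 of them, 14 of which were tested, and 7 were called lower, 4 higher and 3 were not called, beside 11.2% lower and 11.6% higher over all tested genes. The median log2 fold change was -0.29, beside 0.0062 over all tested genes, and the count called higher lay between 0 and 4 over the alternatives. This list and the lists below were chosen with earlier results of these data known, so their counts and adjusted p-values are a description. Csad, which turns cysteine sulfinate towards taurine, fell from 48.3 ± 2.90 to 22.7 ± 2.95 CPM (SD, n = 3, log2 fold change -1.09, adjusted p = 5.12e-07 in edgeR's quasi-likelihood test). Suox, the sulfite oxidase that makes inorganic sulphate, fell from 113.4 ± 4.91 to 74.4 ± 1.24 CPM (-0.61, adjusted p = 1.67e-06). The other genes of sulfur oxidation that fell were Tst (-0.54, adjusted p = 1.20e-05), Ethe1 (-0.53, adjusted p = 4.49e-04) and Mpst (-0.46, adjusted p = 3.00e-04). Slc26a1, a sulphate transporter of the hepatocyte membrane, fell from 148.5 ± 10.1 to 109.2 ± 8.62 CPM (-0.44, adjusted p = 2.29e-04). Bpnt1, which breaks down PAP, the product left from PAPS, fell from 33.2 ± 1.71 to 24.8 ± 1.98 CPM (-0.42, adjusted p = 9.19e-04).

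In the same list Slc26a11, another sulphate transporter, rose from 5.72 ± 0.831 to 8.30 ± 0.298 CPM (0.54, adjusted p = 0.00849). Sqor (0.24) and Cdo1 (0.21), which act on sulfide and on cysteine, were higher as well. The call of Sqor was lost in the 3 limma fits on FPKM, and that of Cdo1 in 1 of them and without WT replicate 2. Slc35b2, the carrier of PAPS into the Golgi, was called at 0.21 (adjusted p = 0.0475), but its libraries overlapped and its call was lost in 12 of 17 alternatives. Slc26a2, Slc35b3 and Impad1 were not called, with log2 fold changes of 0.25, -0.01 and -0.16.

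Of 13 other cytosolic sulfotransferase genes 7 were in the table, and 3 of these were tested, all without a call in edgeR's quasi-likelihood test (adjusted p 0.77 to 0.987). The same held in the 13 to 17 alternatives in which each of them had a value (adjusted p 0.506 to 0.999). Sult2a7 had 1.65 ± 0.315 CPM in WT libraries and 1.64 ± 0.144 CPM in S100a16KO+/- libraries, while Sult2a2 had at most 22 counts and Sult4a1 at most 13 counts in a library. Among the sulfotransferases of the Golgi, which act on proteoglycans, lipids and tyrosines, 27 were in the table, 18 were tested, 3 were called higher and 3 lower, beside 11.6% and 11.2% over all tested genes. Tpst1, a tyrosylprotein sulfotransferase, rose from 14.3 ± 0.046 to 23.2 ± 0.542 CPM (0.70, adjusted p = 1.21e-05), and Chst13, a chondroitin sulfotransferase, fell from 5.91 ± 1.11 to 1.99 ± 0.751 CPM (-1.57, adjusted p = 5.59e-04). Chst15 (0.45, adjusted p = 0.0132) and Hs3st3b1 (0.31, adjusted p = 0.00104) were also higher and Hs6st1 (-0.21, adjusted p = 0.0366) lower. The call of Chst15 was lost without WT replicate 2 and with limma on log2(FPKM + 1) over all genes, and that of Hs6st1 in 7 of 17 alternatives. Gal3st1, which makes sulfatide, fell from 1.302 ± 0.356 to 0.634 ± 0.207 CPM (-1.04, adjusted p = 0.0466), a call lost in 10 of 16 alternatives. Of the sulfatases and their activators 11 were tested and 10 were not called, with a median log2 fold change of -0.0058 over the list.

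Of 17 tested receptors and transcription factors known to act on sulfotransferase genes, 11 were called lower and 2 higher, beside 11.2% lower and 11.6% higher over all tested genes, with a median log2 fold change of -0.29. The count called lower lay between 7 and 12 over the alternatives. As this list too was chosen with earlier results known, nothing is read from these counts. Ahr, the receptor for dioxin-like compounds, fell from 35.5 ± 1.299 to 21.1 ± 1.09 CPM (-0.75, adjusted p = 2.08e-06). Cebpa, a factor of the mature hepatocyte, fell from 194.0 ± 1.27 to 119.5 ± 1.55 CPM (-0.70, adjusted p = 1.13e-07), and its relative Cebpb rose from 104.1 ± 8.42 to 146.5 ± 19.2 CPM (0.49, adjusted p = 0.00166). Nr1h4, the bile acid receptor FXR, fell from 166.1 ± 3.77 to 108.4 ± 2.16 CPM (-0.62, adjusted p = 6.65e-07). Nfe2l2, which encodes NRF2, fell from 72.1 ± 2.11 to 49.9 ± 2.76 CPM (-0.53, adjusted p = 1.39e-05). Also called lower were Nr3c1 (-0.46), Rora (-0.41), Nr1i2 (-0.34), Esr1 (-0.29) and Rxra (-0.16), and Nr1h2 was the second called higher (0.31). Of these, Esr1, Rxra and Nr1h2 lost their calls in 8 to 10 of 17 alternatives.

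Genes listed as steroid hormone enzymes showed calls in both directions, and a link between them and the substrates of Sult1e1 was not tested. Of 22 tested, 4 were called higher, 7 lower and 11 were not called, beside 11.6% higher and 11.2% lower over all tested genes. Over the alternatives 3 to 7 were called higher and 4 to 8 lower. Hsd17b4, a dehydrogenase that also acts on fatty acids in peroxisomes, fell from 315.7 ± 14.6 to 208.5 ± 2.93 CPM (-0.60, adjusted p = 9.58e-07). Hsd17b11 (-0.41, adjusted p = 7.95e-05) and Akr1c14 (-0.36, adjusted p = 5.83e-04) fell too, and the remaining falls, of Akr1d1, Hsd17b12, Hsd3b7 and Akr1c6, lay between -0.33 and -0.22. Cyp17a1, which leads to androgens, rose from 82.1 ± 1.98 to 119.9 ± 5.20 CPM (0.55, adjusted p = 5.06e-06), and Hsd11b1, Hsd17b6 and Hsd17b13 rose by 0.28, 0.27 and 0.18 on the log2 scale. The calls of Akr1c6 (among others without WT replicate 3) and Hsd17b13 were each lost in 4 of 17 alternatives, and those of Akr1c14 and Hsd3b7 in the 3 limma fits on FPKM. The reads of Hsd3b7 are uncertain, since 54.8% of its words of 31 bases occur in another gene that overlaps it.

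The sex bias of the liver was examined because sulfotransferase genes differ between male and female mice. Of 12 tested female-biased genes 4 were called higher and 4 lower, and of 15 tested male-biased genes 1 was called higher and 3 lower, beside 11.6% higher and 11.2% lower over all tested genes. The male-biased count called higher lay between 0 and 3 over the alternatives, and the female-biased count called lower between 2 and 4. Of the female-biased genes, Cyp2a4 rose from 104.6 ± 7.78 to 172.9 ± 12.8 CPM (0.73, adjusted p = 2.56e-06 in edgeR's quasi-likelihood test), and Cyp2b13 (0.62) and Cux2 (0.34) rose too, whereas Acot3 (-0.62), Abcd2 (-0.57), Rtn4 (-0.24) and Cyp2b9 (-0.20) fell. The male-biased Cyp4a12b (-0.66), Cyp4a12a (-0.57) and Nudt7 (-0.38) fell, and Mup20, a major urinary protein, rose by 0.27. Between 23.1% and 64.5% of the words of 31 bases of Cyp2a4, Cyp2b13, Cyp2b9, Acot3, the Cyp4a12 pair and Mup20 also occur in relatives, so their values are uncertain. The calls of Rtn4 and Cyp2b9 were lost in 9 and 5 of 17 alternatives.

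**Figure D5:**
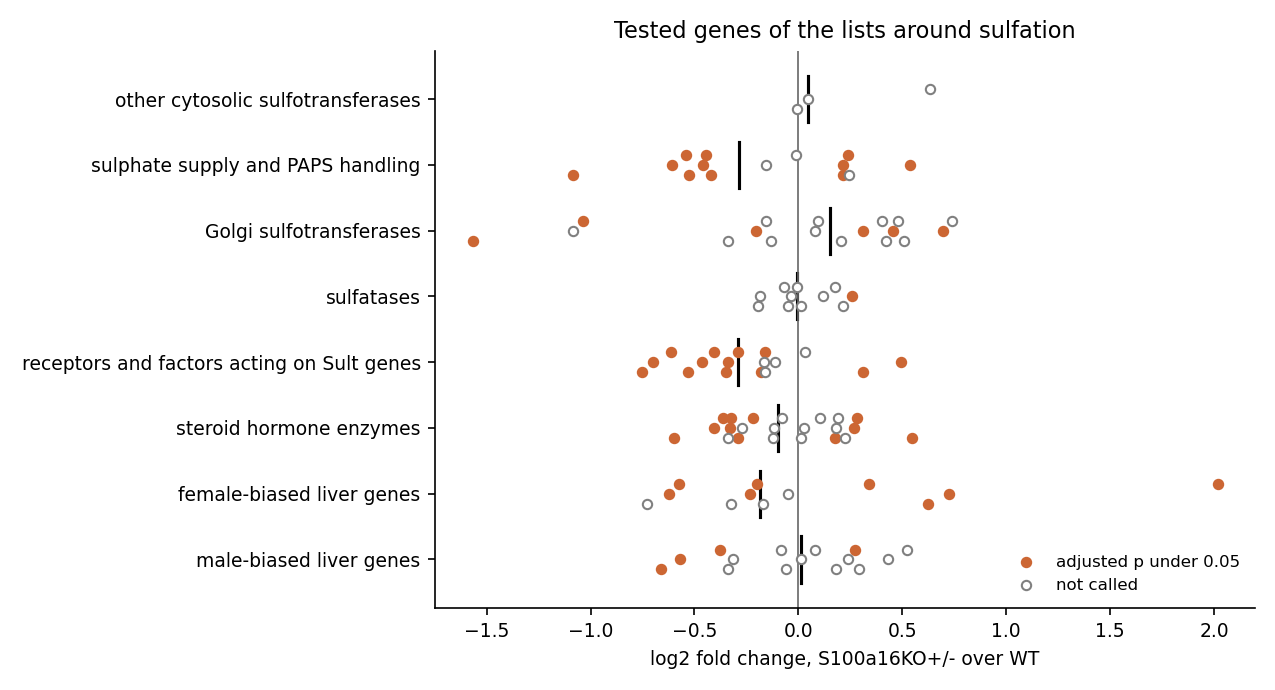
Log2 fold change (S100a16KO+/- over WT) of every tested gene in 8 lists around sulfation, filled where the adjusted p was under 0.05 and open where it was not, with a black line at each list's median. The lists of sulphate supply and of receptors and factors have medians of -0.29, and those of the other lists lie between -0.19 and 0.15.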

How the data were processed

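Per the labels, the RNA was poly(A)-selected and sequenced with a stranded protocol and adapters carrying molecular identifiers, and read as pairs. The submitters' processing notes name cutadapt 1.9, HISAT2 2.0.4, UMI-tools, StringTie 1.3.4d, DESeq2, edgeR and mm10, without their roles. The authors deposited, for each gene and library, an estimated count that was not scaled for library size, and an FPKM value, for which the authors divided by transcript length and library size.

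The members and gene lists were chosen with earlier results of these data known. Estimated counts were rounded and tested with edgeR 4.0.16 in R 4.3.3 (TMM, filterByExpr, robust quasi-likelihood fit, two-sided, no covariate), with Benjamini-Hochberg adjustment over 15957 genes. CPM values are TMM-scaled. Nothing in the labels says that the 3 libraries of a genotype came from separate mice, so p-values measure the spread between libraries, which may be technical. Of the 25718 genes, 25655 occur in GENCODE M21 on GRCm38, 23008 at identical positions, and coordinates are those of the table on that build. Shared words of 31 bases and overlaps came from GENCODE M21, and promoters from RefSeq. Some genes of these lists are counted but not reported by name here. The named genes are all members, the called genes of each list (up to 4 by size of change with full values, and a few chosen after their values were seen), tested genes within 500 kb of Sult1e1 and the 5 with the most similar profile. In simulated counts with 15471 tested genes, the test recovered 49 of 83 genes changed by 1 log2 unit (59%) and 90 of 107 changed by 2 (84.1%), with 11 false calls. The simulation changed 200 genes, far fewer than the 3643 called in the data, so its recovery need not hold for them. Alternatives were DESeq2 1.42.0, limma 3.58.1 (voom, and log2(FPKM + 1) or log2(FPKM + 0.1)), other scaling and filters, counts divided by 4, the replicate number as a block, and leaving out each library.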

Additional observations from a re-analysis of the deposited data

How the results depend on the processing

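Under 17 alternatives Sult1e1 kept its direction, and its log2 fold change was 2.69 with limma on log2(FPKM + 1), with either filter, and 3.46 to 3.67 when 1 library was left out. The count of called genes was 3643 of 15957 tested (22.8%) in the main fit. With limma it was 2305 of 15171 on log2(FPKM + 1) and 2273 of 15171 on log2(FPKM + 0.1). On log2(FPKM + 1) over all genes it was 1666 of 25718, and 34 of the listed pathway genes were called in place of 54. Leaving out 1 library gave 2734 to 3302 called genes and 45 to 55 pathway genes. It gave 6 to 7 of the 10 sulfotransferase and PAPS synthase genes. The smallest count of these 10 in any setting was 5. Sult1a1, Sult1e1, Sult2a8 and Papss2 kept their calls in every setting. Among the calls lost with limma on log2(FPKM + 1) over all genes were those of Sult1d1, Sult5a1, Bpnt1, Slc26a11, Hs3st3b1, Rora, Nudt7 and Mup20. Of the 54 pathway genes, 30 were called in every alternative and none changed sign in them. With the replicate block, 3082 of 15957 tested genes, 44 pathway genes and 7 of the 10 were called, and Sult1e1 was at 3.56. The 10 genes were selected on this comparison, so nothing is read from their counts in any setting. Same-numbered libraries did not deviate together (r = -0.047, -0.024 and 0.052), and WT replicate 1 correlated best with S100a16KO+/- replicate 2 (0.084), so the numbers were not taken as pairs. Depth limits Sult3a1 and the untested sulfotransferase genes, whose counts lay near or under 12. The causes of these shifts were not tested.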
